A study of Mus musculus with 6 samples.

Results

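The intermediate filament genes followed here in MS-1 cells treated with TGF-β2 were the vimentin gene Vim, the neurofilament genes Nefl and Nefm, the nestin gene Nes, the keratin genes Krt7, Krt8, Krt18 and Krt19, the lamin A/C gene Lmna and the plectin gene Plec. They are 10 of the 29955 gene names in the deposited expression table, and 6 of the 10 averaged 1 FPKM or more over the libraries, as did 11816 names in all. The set was chosen from measured values: Vim, Nefl and Krt18 were picked because they were lower with TGF-β2 in these libraries, and the other members were added to see how far the class follows. The TGF-β2 differences of the members are therefore given as a description, with no test. MS-1 is an established mouse endothelial line that was derived from pancreatic islets and immortalised. The cells were transfected with a locked nucleic acid (LNA) inhibitor, a modified oligonucleotide that blocks a microRNA, and were then cultured for 72 h without or with 1 ng/ml TGF-β2. The inhibitors of the 3 transfections were a negative control, one against miR-31 and one against miR-27, so all 6 groups carry an inhibitor and none is untransfected. Each of the 6 groups has 1 library, and the labels do not say whether the libraries came from separate cultures. The p-values therefore reflect the spread among single libraries, which may be technical. They come from a model additive in inhibitor and TGF-β2. Its error holds noise together with any dependence of the TGF-β2 response on the inhibitor, and these cannot be separated.

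Intermediate filaments are the cytoskeletal fibres that give cells mechanical strength, and each cell type builds them from its own proteins. Endothelial and mesenchymal cells use vimentin, simple epithelia use pairs of a type I keratin (Krt18, Krt19) with a type II keratin (Krt7, Krt8), neurons use neurofilaments, and nestin is made in many progenitor and proliferating cells and assembles together with vimentin. Lamins line the inside of the nuclear envelope in nearly all cells, and plectin, a giant protein of the plakin family, ties filaments to actin, to adhesion sites and to the nucleus. Exposure to TGF-β can turn endothelial cells mesenchymal, a change in which vimentin is widely used as a mesenchymal marker.

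The values are FPKM, fragments scaled to transcript length and library size, so levels can be set beside each other between genes, and differences are given on the scale log2(FPKM + 1) with the standard error (SE) of an additive limma model of inhibitor and TGF-β2. Depth is unknown because the table holds no counts. Each library listed 11680 to 11791 names at 1 FPKM or more. The FPKM summed over all names was 2784800 without and 2557500 with TGF-β2 in the negative-control transfection. With the miR-31 inhibitor the sum was 2562700 without and 2519500 with TGF-β2, and with the miR-27 inhibitor 2705500 and 2383000. Values were not rescaled to that sum, so small differences, such as that of Nes, depend on the scaling used. Of 10 endothelial markers, 9 had a mean of at least 1 FPKM, with Pecam1 between 593 and 647 FPKM and Cldn5 at or under 0.0359 FPKM. At a limma adjusted p under 0.05, TGF-β2 changed 50.2% of the genes tested, with 22.7% of the genes tested higher and 27.5% lower, which is the background for every count below. Without either negative-control library 3566 genes passed in place of 5926, and without either miR-27 library 3917. Of the 9 endothelial markers tested, 2 were higher with TGF-β2 by limma (Emcn and Eng), 3 lower (Kdr, Tie1 and Esam) and 4 not called. Their differences ran from -0.797 for Kdr to 0.795 for Emcn. The table also lists the housekeeping gene Eef1a1 at 0 in all 6 libraries, so a listed 0 can be a failed estimate.

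All 6 members above the filter were lower with TGF-β2 in each of the 3 transfections, and by very different amounts. Of all genes tested, 53.4% had a negative difference in the fit, at any size, and since the members were chosen from this contrast nothing is read from the count of 6. The median difference was -1.23 over these 6, which include the 3 genes picked for being lower, and -0.02 over all 11816 genes tested. About 5% of the Nefl level was left (4.75% to 6.24%), against 27.9% to 29.9% of Krt18, 40.5% to 43.9% of Plec, 40.7% to 45.0% of Vim, 58.6% to 63.9% of Lmna and 85.3% to 91.9% of Nes. The other 4 members, Nefm, Krt7, Krt8 and Krt19, lay below the filter. In bulk RNA, fewer cells that express a gene and less RNA per cell cannot be told apart.

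**Figure D1:**
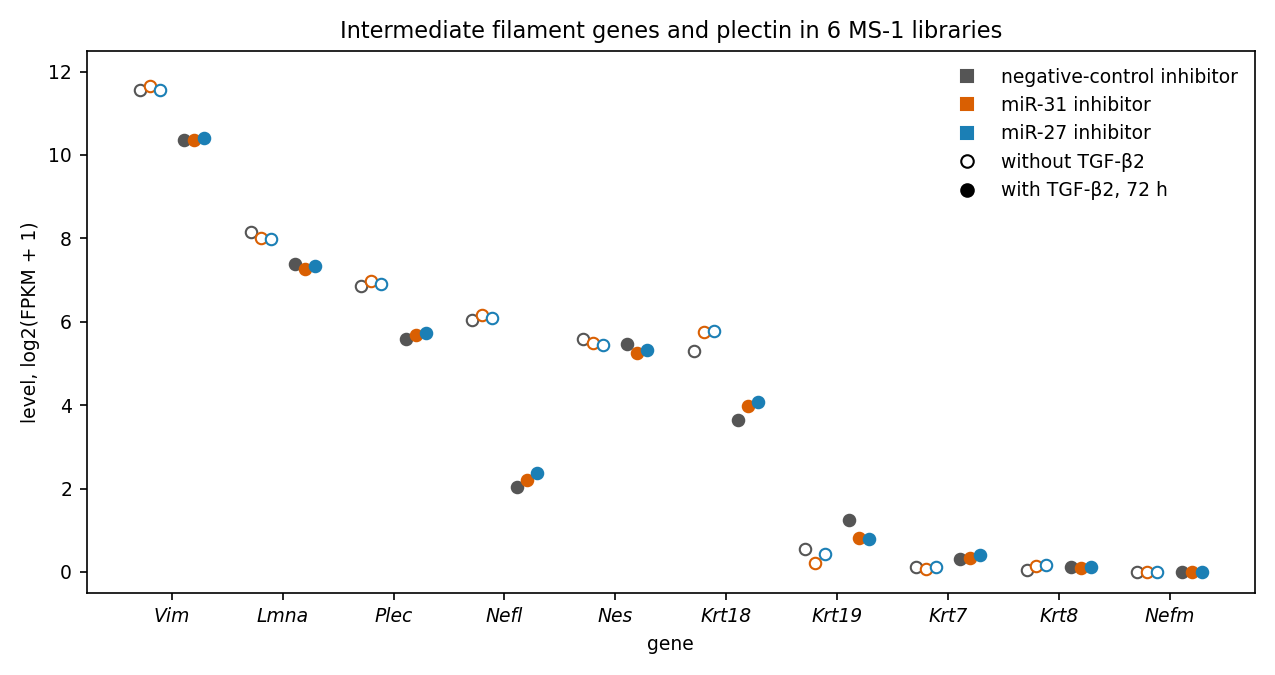
Level of each of the 10 genes as log2(FPKM + 1) in each of the 6 libraries, 1 point per library, open circles without and filled circles with TGF-β2. Vim stands highest in every library, the open and filled points of Nes overlap, and Nefm, Krt7 and Krt8 lie near 0 throughout.

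Without TGF-β2 the order of levels was Vim, Lmna, Plec, Nefl, and then Nes and Krt18, whose ranges overlapped. With TGF-β2 it was Vim, Lmna, Plec, Nes, Krt18 and Nefl, with no overlap between neighbours. Nefl thus went from the fourth place to the sixth.

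Vim, the type III filament protein of endothelial and mesenchymal cells, was by far the most abundant member. Without TGF-β2 it was at 3013, 3227 and 3032 FPKM in the transfections with the negative control and the inhibitors of miR-31 and of miR-27, an order kept for all values that follow, and with TGF-β2 at 1314, 1314 and 1363 FPKM. The groups without and with TGF-β2 did not overlap, and the 3 levels within each lay close together. The difference was -1.21 ± 0.05 (SE of the fit), from -1.20, -1.30 and -1.15 in the 3 transfections, and 1.41% of the genes tested had a more negative difference. Vim remained an abundant RNA: among all names it ranked 36, 37 and 41 in the libraries without TGF-β2, and 102, 105 and 103 in those with it. Its gene lies on chromosome 2, 13495938 to 13504453 of mm9, the build the authors used.

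Vim also stayed the bulk of the cytoplasmic filament RNA. Over 62 names of cytoplasmic intermediate filament genes, the summed level was 3227, 3458 and 3254 FPKM without TGF-β2 and 1426, 1423 and 1475 FPKM with it. Vim made up 93.35%, 93.31% and 93.18% of that sum without TGF-β2, and 92.12%, 92.39% and 92.43% with it. The total was therefore lower while the share of Vim differed by about a percentage point. What changed most in composition was the remainder, which is described after the single genes.

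Nefl, the light chain on which neurofilaments are built, had the sixth most negative difference of all 11816 genes tested. Its level was 65.2, 70.3 and 67.3 FPKM without TGF-β2, and 3.10, 3.61 and 4.20 FPKM with it. The groups lay far apart, and the difference was -3.89 ± 0.07, from -4.01, -3.95 and -3.72. Nefl lies on chromosome 14, 68701941 to 68705794 (mm9).

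Nefm, the medium chain that assembles with Nefl and whose gene lies 31.8 kb away (chromosome 14, 68737602 to 68749421), was listed at 0 in 5 libraries and at 0.00356 FPKM in the miR-31 library with TGF-β2. Since a listed 0 can be a failed estimate, these values do not show that Nefm RNA was absent. An annotated Nefm transcript (GENCODE vM21) shares 1108 bases with Nefl at 100% identity. In the listed mm9 loci, however, Nefl and Nefm do not overlap, and no other name lies at the Nefl locus. Whether fragments of that transcript entered the Nefl value was not tested. Of 11 neuronal markers in the table, none of them a filament gene, 2 averaged 1 FPKM or more, and the summed level of the list was 27.2 to 29.1 FPKM without TGF-β2 and 13.8 to 15.9 with it. The growth cone gene Gap43 moved in the same direction as Nefl, at 16.4, 17.5 and 15.4 FPKM without and 4.40, 4.23 and 4.21 with TGF-β2 (-1.72 ± 0.05, limma adjusted p = 5.38e-05). The tubulin gene Tubb3 was at 11.14, 11.01 and 11.23 FPKM without and 10.7, 8.82 and 9.92 with TGF-β2 (-0.17 ± 0.06, adjusted p = 0.0639). Of the other 9, all below the filter, Mapt, Syp, Rbfox3 and Dcx were higher with TGF-β2 in all 3 transfections. Without Gap43 the summed level of the list was 11.6 to 11.8 FPKM without TGF-β2 and 9.56 to 11.5 with it. The defining neuronal genes Snap25 and Stmn2 were each listed at 0 in 5 libraries and at or under 0.0109 FPKM in the negative-control library with TGF-β2.

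Nes, the large type IV protein that co-assembles with vimentin, followed least. It stood at 47.0, 43.9 and 42.4 FPKM without TGF-β2 and at 43.1, 37.4 and 38.8 with it. The ranges overlapped across transfections, although within each transfection the level with TGF-β2 was the lower one. The difference was -0.16 ± 0.04, from -0.12, -0.22 and -0.13, and 29% of the genes tested had a more negative difference. As a share of the FPKM summed over all names, Nes was higher with TGF-β2 in the miR-27 transfection and lower in the miR-31 transfection. In the negative-control transfection its share was nearly the same without and with TGF-β2. Krt80 and Lmnb2, given below, were also higher by that share in the miR-27 transfection. Under median rescaling between libraries, the fitted Nes difference was -0.17. The ratio of Vim to Nes was 64.2, 73.6 and 71.5 without TGF-β2 and 30.5, 35.1 and 35.2 with it. Nes lies on chromosome 3, 87775015 to 87784373 (mm9).

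Krt18, the type I keratin of simple epithelia, was 38.2, 53.3 and 54.0 FPKM without TGF-β2 and 11.4, 14.8 and 15.8 with it. The groups did not overlap, and the negative-control library was the lowest in both. The difference was -1.72 ± 0.04, from -1.66, -1.78 and -1.72, and 0.643% of the genes tested had a more negative one. Krt8, the type II partner with which Krt18 forms filaments, was at 0.0410, 0.0973 and 0.116 FPKM without TGF-β2 and at 0.0851, 0.0677 and 0.0859 with it, and these values overlapped. The pair are neighbours on chromosome 15 of mm9, Krt8 at 101827142 to 101834773 and Krt18 at 101858647 to 101862457, 23.9 kb apart. Both have processed pseudogenes that are annotated in GENCODE vM21 and not listed by name in the table, Gm5200 at 90.5% identity over 1267 bases of Krt18 and Krt8-ps at 98.6% over 941 bases of Krt8. Low values of Krt8 are uncertain for that reason.

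The sequences around the start sites are shown because Krt18 and Krt8 are neighbours whose RNA levels stood far apart, beside Vim, the most abundant member. RefSeq (GRCm38.p6) gave such a window, from 250 bases before to 50 bases after the start, for 6 of the 10 members. Capitals mark matches on either strand to a TATA box (TATAAA), a GC box (GGGCGG) or an AP-1 site (TGANTCA).
Vim, chr2:13574061-13574360, plus strand: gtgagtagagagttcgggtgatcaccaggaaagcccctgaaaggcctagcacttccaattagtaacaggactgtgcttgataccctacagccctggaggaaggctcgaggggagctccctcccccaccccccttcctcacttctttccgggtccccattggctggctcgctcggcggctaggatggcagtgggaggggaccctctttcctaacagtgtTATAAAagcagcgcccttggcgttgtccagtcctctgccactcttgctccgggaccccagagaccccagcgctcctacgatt
Krt18, chr15:102027966-102028265, plus strand: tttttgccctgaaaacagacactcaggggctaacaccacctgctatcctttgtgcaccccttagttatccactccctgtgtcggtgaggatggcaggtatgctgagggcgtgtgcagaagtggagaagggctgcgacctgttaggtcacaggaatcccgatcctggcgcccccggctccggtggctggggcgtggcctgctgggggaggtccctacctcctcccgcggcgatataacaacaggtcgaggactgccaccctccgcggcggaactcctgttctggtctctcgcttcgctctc
Krt8, chr15:102004293-102004592, minus strand: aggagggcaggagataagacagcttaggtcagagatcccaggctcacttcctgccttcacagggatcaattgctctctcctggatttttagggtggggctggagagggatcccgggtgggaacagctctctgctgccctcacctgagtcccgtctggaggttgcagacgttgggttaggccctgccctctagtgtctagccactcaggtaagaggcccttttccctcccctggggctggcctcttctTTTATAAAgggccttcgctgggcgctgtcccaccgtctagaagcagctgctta
The Vim window held 1 TATA match, at -32 from the start, and none of the other motifs. The Krt18 window held no match to any of these 3 motifs. The Krt8 window held 2 TATA matches, on opposite strands and overlapping, at -3 and -1. The Smad box CAGAC, searched on both strands as well, matched once in the Krt18 window (at -235), at 2 places in the Krt8 window (-99 and -87) and nowhere in the Vim window. Of 32851 RefSeq windows of this length, 13.6% held the TATA box, 35.7% the GC box, 7.81% the AP-1 site and 49.6% CAGAC. The GC content was 59.3% for Vim, 61.3% for Krt18 and 58% for Krt8. A match is a description of letters in the window, and no binding was measured.

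The other simple-epithelial keratins lay low and pointed the other way. Krt19, a type I keratin of ducts, was at 0.475, 0.170 and 0.346 FPKM without TGF-β2 and at 1.37, 0.755 and 0.719 with it. Krt7, a type II keratin of ducts and some endothelia, was at 0.0815, 0.0527 and 0.0789 FPKM without and at 0.243, 0.251 and 0.316 with TGF-β2. For both genes every value with TGF-β2 was above every value without it, at levels below the filter. Krt19 lies on chromosome 11, 100002126 to 100007233, and Krt7 on chromosome 15, 101242834 to 101258237 (mm9). Of 16 epithelial markers, a list without keratins, none had a mean of 1 FPKM or more, and the summed level was 0.780 to 1.02 FPKM without TGF-β2 and 1.39 to 1.71 with it. Within each transfection 3 of the 16 were higher with TGF-β2 (Cldn4, Cldn7 and Elf3), 3 were lower (Cldn3, Grhl2 and Spint1) and 10 were mixed or at 0. The tight junction gene Cldn4 was at 0.0271 to 0.0816 FPKM without and 0.684 to 0.984 with TGF-β2, and without it the summed level was 0.753 to 0.933 FPKM without and 0.707 to 0.778 with TGF-β2. Grhl2, an epithelial transcription factor, was at 0.384, 0.308 and 0.334 FPKM without and 0.140, 0.154 and 0.107 with TGF-β2. Epcam was listed at 0 in all 6 libraries and Cdh1 did not exceed 0.0281 FPKM. The part of such markers in the Krt7 and Krt19 values was not tested.

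Lmna, which encodes lamins A and C, was 284.6, 257.9 and 252.3 FPKM without TGF-β2 and 166.8, 153.4 and 161.3 with it. The groups did not overlap, and the difference was -0.72 ± 0.05, from -0.77, -0.75 and -0.64. A more negative difference was found for 3.82% of the genes tested. The values per gene do not separate lamin A from lamin C. Lmna lies on chromosome 3, 88285071 to 88307254 (mm9).

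The 2 B-type lamin genes had smaller differences than Lmna, one above 0 and one below it. Lmnb1, which encodes lamin B1, was 28.7, 27.2 and 26.8 FPKM without TGF-β2 and 33.8, 32.0 and 36.0 with it, and rose by 0.29 ± 0.05 (limma adjusted p = 0.0107; 0.0521 without either miR-27 library). Lmnb2, which encodes lamin B2, was 14.7, 14.7 and 14.2 FPKM without and 13.4, 13.1 and 13.3 with TGF-β2, lower in each transfection with no overlap, a difference of -0.12 ± 0.04 with an adjusted p of 0.059. The adjusted p of Lmnb2 was 0.0425 with no filter on low values, 0.0473 with a filter of 5 FPKM and 0.0451 with median rescaling. The ratio of Lmna to the sum of both B-type genes was 6.57, 6.15 and 6.15 without TGF-β2 and 3.53, 3.40 and 3.27 with it.

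Plec, the plakin that links filaments to each other and to their anchors, was 114.2, 124.7 and 118.6 FPKM without TGF-β2 and 46.8, 50.5 and 52.1 with it. The groups did not overlap, and the difference was -1.24 ± 0.04, from -1.27, -1.29 and -1.17, with 1.29% of the genes tested more negative. Plec and Vim were lower in nearly the same proportion, and the ratio of Vim to Plec was 26.4, 25.9 and 25.6 without TGF-β2 and 28.1, 26.0 and 26.2 with it. The table places Plec on chromosome 15, 76001404 to 76073870 (mm9), a locus it also gives for Plec1, Parp10 and Mir1942. Parp10 was listed at 12.9 to 14.4 FPKM and Plec1 at 0.0647 to 0.412 FPKM, so the division of fragments between these names is uncertain. Eppk1 shares 344 bases with Plec at 91% identity.

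The rest of the intermediate filament class lay mostly below the filter, and its expressed genes moved in both directions. Of 59 further symbols, 56 were in the table and 5 had a mean of at least 1 FPKM: the type II keratin gene Krt80, the desmin gene Des, the synemin gene Synm, Lmnb1 and Lmnb2. By limma 2 of the 5 were higher with TGF-β2, 2 lower and 1 not called, with a median difference of -0.12. Among all genes tested, 22.7% were higher and 27.5% lower. Of the 2 higher, Des passed the filter only through its higher values with TGF-β2, so nothing is read from its place in this count. The other 51 stayed below the filter, 18 of them at 0 in every library, and the highest value among them was 0.626 FPKM, for Krt10.

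Synm, which encodes a type IV protein that joins vimentin or desmin filaments, had the difference nearest to that of Vim on the log2(FPKM + 1) scale. It was 3.35, 3.28 and 3.24 FPKM without TGF-β2 and 1.05, 1.06 and 1.25 with it, and it fell by 1.02 ± 0.05 on the log2 scale (adjusted p = 2.13e-04). In FPKM, 31.3%, 32.4% and 38.6% of Synm was left, less than of Vim in each transfection. Des, the filament gene of muscle, was 1.07, 0.889 and 1.02 FPKM without and 1.63, 1.46 and 1.45 with TGF-β2, and rose by 0.34 ± 0.04. No adjusted p from the filtered fit is given for Des, because it passed that filter only through its values with TGF-β2. With no filter on low values, the limma adjusted p of Des was 0.01115. Its values without TGF-β2 lay around the filter of 1 FPKM, and with a filter of 5 FPKM it was not tested. Krt80, a keratin of many epithelia, was 58.2, 58.4 and 52.3 FPKM without and 49.1, 47.7 and 48.2 with TGF-β2. It fell by 0.21 ± 0.05 (adjusted p = 0.0212), a call that was lost without either negative-control library (0.110) and with no filter on low values (0.0544). Krt80 is listed on chromosome 15, 101153319 to 101236265 (mm9), a locus also given for AK138921 and Mir1941. AK138921 was listed at 0.488 to 1.04 FPKM, so the division of fragments between these names is uncertain. Neither Synm nor Des reached the level of any member above the filter without TGF-β2.

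**Figure D2:**
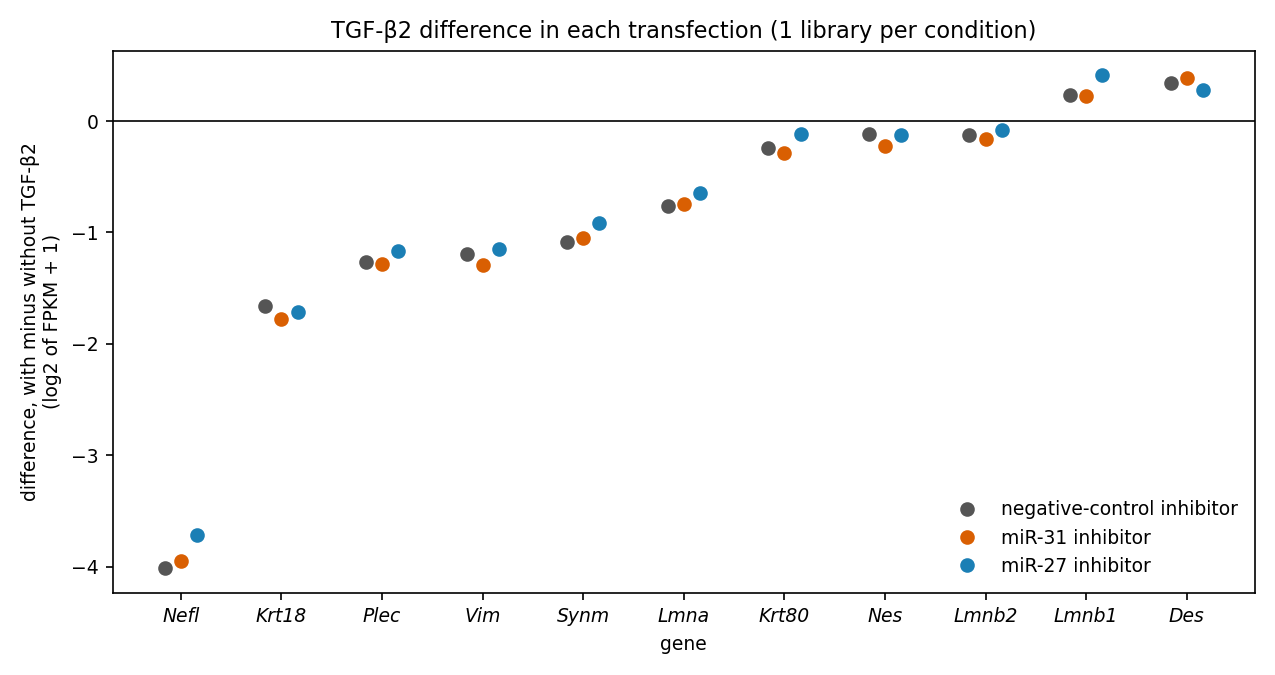
Difference in log2(FPKM + 1), with minus without TGF-β2, for the 6 members above the filter and for 5 other filament genes, 1 point per transfection. The 3 points of each gene lie on the same side of 0, from about -4 for Nefl to above 0 for Lmnb1 and Des.

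Among the cytoplasmic filament genes other than Vim, the leading gene differed with TGF-β2. Their summed level was 214.8, 231.2 and 221.8 FPKM without TGF-β2 and 112.4, 108.3 and 111.6 with it. Nefl made up 30.4%, 30.4% and 30.3% of it without TGF-β2 and 2.76%, 3.33% and 3.76% with it. Krt80 made up 27.1%, 25.3% and 23.6% without and 43.7%, 44.1% and 43.1% with TGF-β2, and Nes 21.9%, 19% and 19.1% without and 38.4%, 34.5% and 34.7% with. Krt18 made up 17.8%, 23% and 24.3% without and 10.2%, 13.7% and 14.1% with TGF-β2. The shares of Krt80 and Nes were thus larger although neither gene was higher in FPKM.

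Keratin RNA was nearly all of 2 genes. Over 49 keratin names, Krt18 and Krt80 together held 98.5%, 99.2% and 98.8% of the summed keratin FPKM without TGF-β2 and 95.7%, 97.0% and 97.3% with it. The ratio of Krt80 to Krt18 was 1.52, 1.10 and 0.969 without TGF-β2 and 4.30, 3.22 and 3.06 with it.

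**Figure D3:**
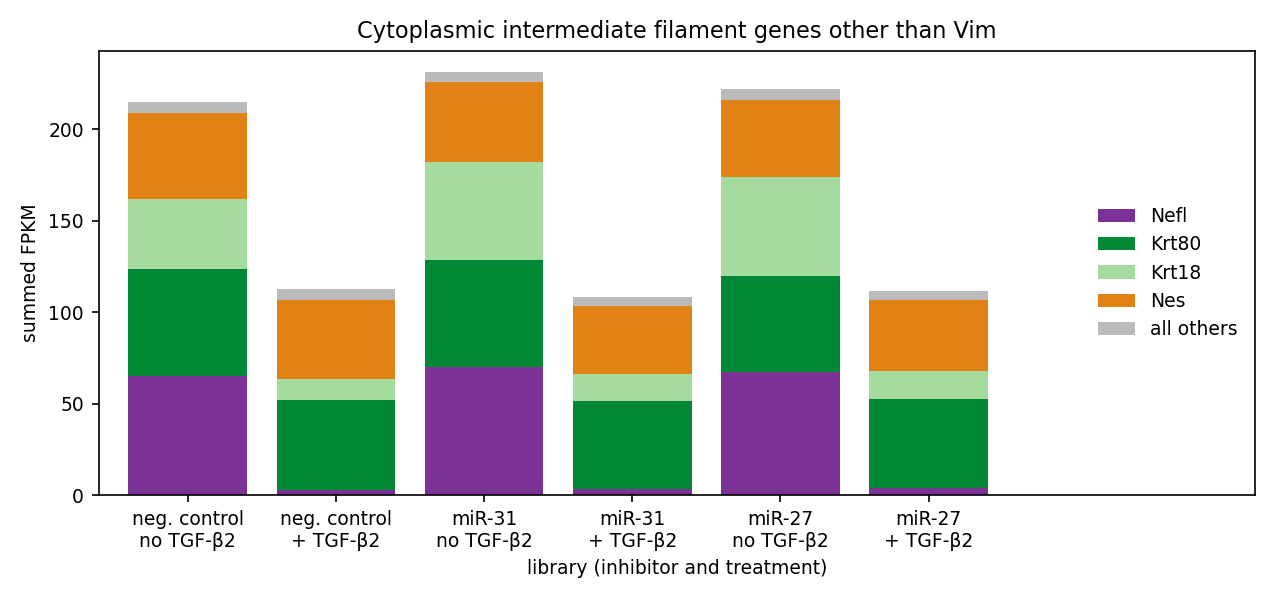
Summed FPKM of the cytoplasmic intermediate filament genes other than Vim in each of the 6 libraries, stacked by gene, 1 bar per library. The Nefl segment is about 30% of each bar without TGF-β2 and under 4% with it, while the Krt80 and Nes segments are of similar height in all 6 bars.

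The linkers and anchors of filaments did not follow Plec as a group. Of 32 plakin, desmosome, hemidesmosome, chaperone and keratin-binding genes, 16 averaged 1 FPKM or more. By limma 8 of the 16 were higher with TGF-β2, 3 lower and 5 not called, with a median difference of 0.18. The shares over all genes tested were 22.7% higher and 27.5% lower. Without either negative-control library 7 passed in place of 11. Ppl, which encodes the plakin periplakin, was 16.9, 18.0 and 17.3 FPKM without TGF-β2 and 1.37, 1.67 and 1.69 with it, and fell by 2.84 ± 0.05 (adjusted p = 2.02e-05). The 2 other plakins tested went the other way: Macf1, a linker of actin and microtubules, rose by 0.30 ± 0.04 (adjusted p = 0.00491), and Dst, the dystonin gene, rose by 0.19 ± 0.05 (adjusted p = 0.033). The Dst call was lost without either negative-control library (0.167) or either of the miR-27 libraries (0.142), and with no filter (0.0767), and Dst was named after its values were seen.

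Of the junction genes that anchor filaments, the desmosomal Pkp2 (plakophilin 2) was 2.48, 3.08 and 2.86 FPKM without TGF-β2 and 7.88, 7.89 and 7.26 with it, and rose by 1.19 ± 0.06 (limma adjusted p = 2.58e-04). Jup, the plakoglobin gene, rose by 0.49 ± 0.06 (adjusted p = 0.00332). Itga6, the α6 chain of laminin-binding integrins and of hemidesmosomes, was 112, 118.2 and 96.2 FPKM without and 9.64, 11.9 and 10.5 with TGF-β2, and fell by 3.23 ± 0.07 (adjusted p = 2.94e-05). Cd151, a tetraspanin that partners such integrins, rose by 0.41 ± 0.05 (adjusted p = 0.00227). Its values were 76.1, 81.1 and 78.0 FPKM without and 102.8, 102.2 and 107.5 with TGF-β2.

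Of 19 nuclear lamina partners, all with a mean of at least 1 FPKM, 4 were higher with TGF-β2 by limma, 6 lower and 9 not called. The median difference was -0.05. Over all genes tested, 22.7% were higher and 27.5% lower, and nothing is read from these counts. Without either negative-control library 5 passed in place of 10, and without either miR-27 library 4. Syne3, which encodes nesprin-3, the outer nuclear membrane protein that binds plectin, moved most. It is listed under its clone name 4831426I19Rik and was 21.7, 22.0 and 20.4 FPKM without TGF-β2 and 6.99, 6.66 and 6.77 with it, and it fell by 1.52 ± 0.04 (adjusted p = 5.37e-05). Banf1, a chromatin-binding partner of the lamina, fell by 0.51 ± 0.06 (adjusted p = 0.00254), and Lbr, the lamin B receptor, fell by 0.31 ± 0.05 (adjusted p = 0.00608). Tmpo, the LAP2 gene, rose by 0.28 ± 0.04 (adjusted p = 0.00493).

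Of the enzymes that modify the prelamin A tail, Fntb, a farnesyltransferase subunit, fell by 0.26 ± 0.05 (limma adjusted p = 0.00855; 0.0505 without either miR-27 library). Icmt, the carboxyl methyltransferase, rose by 0.22 ± 0.04 (adjusted p = 0.00902; 0.0557 when a negative-control library was left out and 0.0645 when a miR-27 library was).

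**Figure D4:**
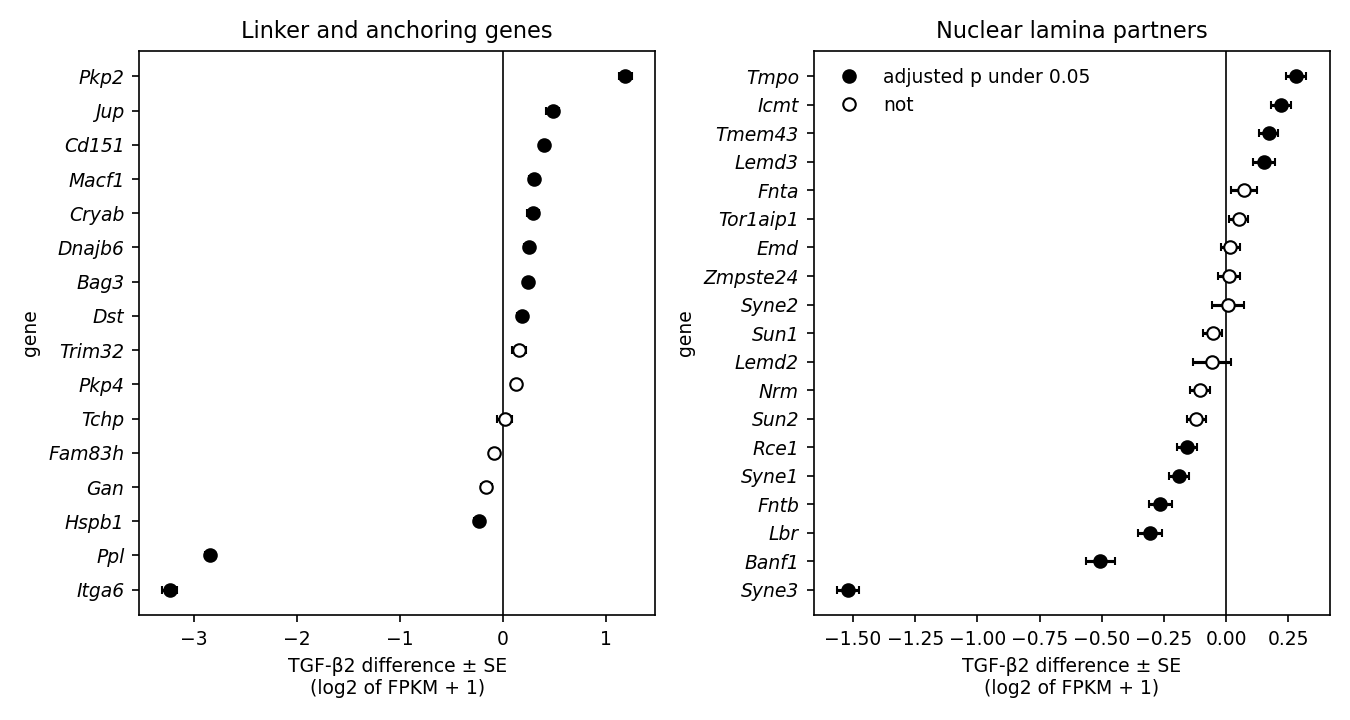
TGF-β2 difference ± SE of the fit in log2(FPKM + 1) for the 16 tested linker and anchoring genes (left) and the 19 tested nuclear lamina partners (right), with filled points at a limma adjusted p under 0.05. Itga6 and Ppl on the left and Syne3 on the right lie apart from the other genes, below 0.

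Profiles over the 6 libraries were compared as the root mean square difference between log2(FPKM + 1) values, each gene centred on its own mean, as a description. Among the members, Vim and Plec were the most alike, at 0.0392, against 0.261 for Vim and Lmna, 0.283 for Nes and Lmna, and 1.88 for Nefl and Nes, the least alike. The genes outside the members most like Vim on this scale were Nos3, the endothelial nitric oxide synthase, at 0.0399, Arhgap26 at 0.0410 and Arhgef7, a guanine nucleotide exchange factor, at 0.0445. Arhgap26 was a low gene, at 2.11, 2.35 and 2.02 FPKM without TGF-β2 and 0.403, 0.395 and 0.351 with it. In proportion it was lowered more than Vim, because the added 1 FPKM understates changes of low genes. Nos3 was 185.9, 184.8 and 176.5 FPKM without TGF-β2 and 76.8, 74.2 and 81.0 with it.

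The genes most like Nefl were farther from it, Eps8, an actin regulator, at 0.166, Stfa3, a cysteine protease inhibitor of a family of close copies, at 0.256 and Hmga1, a chromatin protein, at 0.331. Eps8 was 78.7, 86.2 and 81.0 FPKM without TGF-β2 and 3.17, 3.99 and 3.61 with it. Most like Krt18 were Adam8, a membrane metalloprotease, at 0.122, Prune2 at 0.123 and Atp8a1, a phospholipid flippase, at 0.124. Prune2 was 11.7, 18.7 and 18.2 FPKM without and 2.79, 4.72 and 3.86 with TGF-β2, and as for Krt18 the negative-control library was the lowest in both states.

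The microRNA inhibitors address whether miR-31 or miR-27 bears on these genes. The labels name the microRNAs and not the arm. The mature sequences of the usual arms, from RefSeq (GRCm38.p6), are shown because their seeds (bases 2 to 8, in capitals) define the sites searched in the members, and miR-27a and miR-27b share a seed.
miR-31-5p: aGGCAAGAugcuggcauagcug
miR-27a-3p: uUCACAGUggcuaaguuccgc
miR-27b-3p: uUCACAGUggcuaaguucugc
The 7-base matches to these seeds, TCTTGCC for miR-31 and ACTGTGA for miR-27, were searched in 3′ UTRs of GENCODE vM21. For each gene only the basic protein-coding transcript with the longest coding sequence was used, so 3′ UTRs found only in other transcripts were not searched. The 3′ UTRs of these transcripts of the 10 members, 69 to 2651 bases long, held 0 matches to either. Of 20607 genes with a 3′ UTR, with a median length of 805 bases, 10.2% held a miR-31 match and 14.5% a miR-27 match. No match says only that these letters are not in these UTRs.

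None of the 6 members above the filter was called for either inhibitor by limma, which does not show that they were unchanged. Of all genes tested, 0.0339% passed for the miR-31 inhibitor and 0.00846% for the miR-27 inhibitor. At an unadjusted p under 0.05 there were 2 members for each inhibitor, Krt18 and Nes, beside 18.1% of all genes tested for the miR-31 inhibitor and 12.4% for the miR-27 inhibitor, and limma with trend and robust options also called 0 of the 6. Krt18 stood farthest from the negative control. It was higher with the inhibitor of miR-31 by 0.47 without and 0.35 with TGF-β2, 0.41 ± 0.05 in the fit (adjusted p = 0.211). With the miR-27 inhibitor it was higher by 0.49 and 0.43, 0.46 ± 0.05 in the fit (adjusted p = 0.295). Both comparisons use the same 2 negative-control libraries. Without the miR-31 library without TGF-β2 the Krt18 difference for that inhibitor was 0.36 with an adjusted p of 0.0374, in a fit that called 1137 genes in place of 4.

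The other members lay closer to the negative control. Nes differed by -0.15 ± 0.05 with the miR-31 inhibitor (limma adjusted p = 0.257) and by -0.15 ± 0.05 with the miR-27 inhibitor (adjusted p = 0.385), and it was lower in both TGF-β2 states with each. Lmna differed by -0.13 ± 0.06 (adjusted p = 0.296) and -0.11 ± 0.06 (adjusted p = 0.474). Nefl differed by 0.14 ± 0.09 (adjusted p = 0.41) and 0.19 ± 0.09 (adjusted p = 0.432), Plec by 0.12 ± 0.05 (adjusted p = 0.317) and 0.10 ± 0.05 (adjusted p = 0.489). Vim differed by 0.05 ± 0.06 (adjusted p = 0.642) and 0.03 ± 0.06 (adjusted p = 0.837), the values nearest to 0, and their sign turned under some alternatives, down to -0.01 without the miR-31 library without TGF-β2 and to -0.02 without the miR-27 library with TGF-β2. Whether the TGF-β2 response of a member depended on the inhibitor could not be tested with 1 library per condition. The 3 responses of Nefl spanned -4.01 to -3.72, the widest range among the 6 members, and each member kept its sign in all 3.

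**Figure D5:**
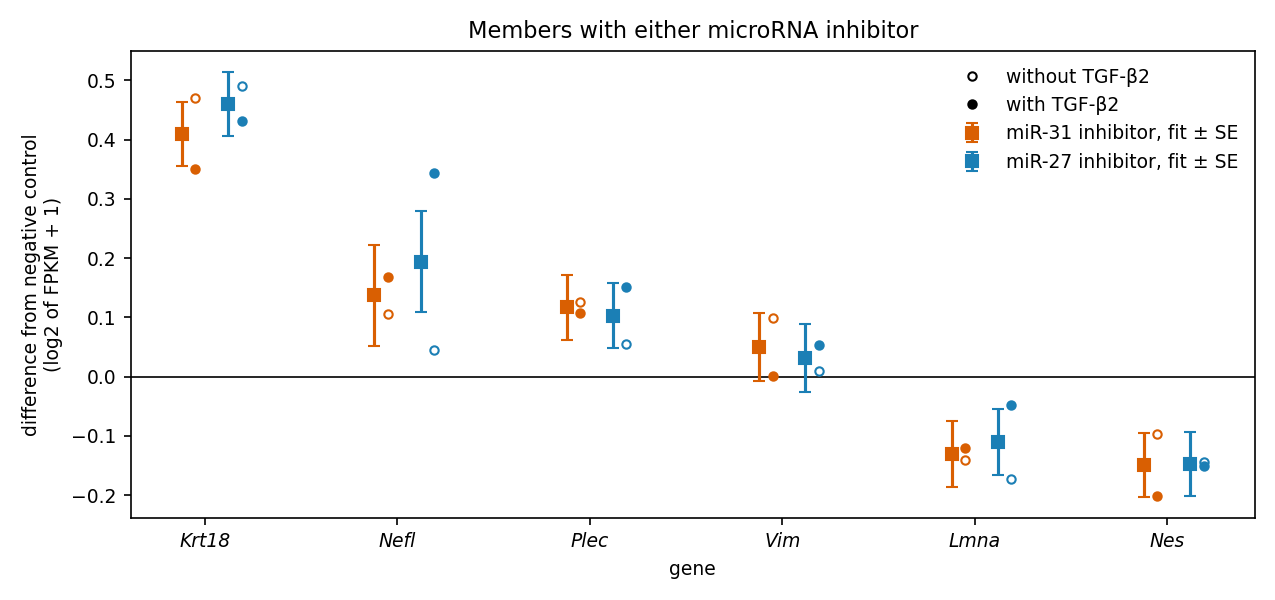
Difference from the negative-control inhibitor in log2(FPKM + 1) for the 6 members above the filter, with squares and bars for the fit ± SE and circles for single pairs of libraries, open without and filled with TGF-β2. Krt18 lies between 0.35 and 0.49 in all 4 pairs, and the other members lie closer to 0.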

How the data were processed

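The authors deposited 1 table of FPKM per gene name, with 1 column for each of the 6 libraries. Per the submitters' processing notes the tools were TopHat2 2.0.9 and Cufflinks 2.1.1 with the mouse build mm9. The annotation and counting options are not given in the sources used here. Ribosomal RNA was depleted and libraries were directional, per the labels' protocols. The deposited FPKM values were used without rescaling, as log2(FPKM + 1), which understates changes of low genes. Genes that averaged 1 FPKM or more were fitted with limma 3.58.1 (R 4.3.3), additive in inhibitor and TGF-β2, with 2 residual degrees of freedom and a prior of 2.87, 2-sided, with Benjamini-Hochberg adjustment over all genes tested and a threshold of 0.05. The code was tested on simulated data. Near copies were found with BLAST 2.17.0 and figures drawn with matplotlib 3.10.9 (Python 3.11.15).

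The members, lists and tests were chosen with earlier results of these data known. All 10 members were named, and in each further list the 6 tested genes with the largest absolute TGF-β2 difference and any lamin or type III to VI gene. For likeness of pattern, the nearest 3 tested genes were named for Vim, Nefl and Krt18, skipping joint, clone, predicted and small RNA names. Krt10, Gap43, Dst and the marker genes given with values lie outside the rule for lists and were added once their values were known. Alternatives were another pseudocount, filter, scaling and moderation, and leaving out each library or transfection.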

Additional observations from a re-analysis of the deposited data

Results flagged for a closer look

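With the miR-27 inhibitor, Pkp2 and Itga6 differed from the negative control in opposite directions without and with TGF-β2. Pkp2 differed by 0.15 without TGF-β2 and by -0.10 with it, and Itga6 by -0.22 without and by 0.11 with it, in log2(FPKM + 1). Each value rests on 1 pair of libraries, and the difference between the TGF-β2 states was not tested.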

How the results depend on the processing

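The sign of the TGF-β2 difference held for each of the 6 members above the filter in every alternative run. Leaving out libraries could not have turned it, because the responses of each member were negative in all 3 transfections. Leaving out 1 library of a transfection also gave the same TGF-β2 estimate as leaving out both. The number of genes called for TGF-β2 ranged from 3566 to 6087 when a library was left out, and was 3566 without both negative-control libraries and 3917 without both miR-27 libraries, where fewer samples entered the fit. The linker calls ranged from 7 to 13 with a library left out and were 7 without both negative-control libraries. The lamina partner calls ranged from 4 to 11, and were 5 without both negative-control and 4 without both miR-27 libraries. For the miR-31 inhibitor, limma called 0 genes with no filter on low values (3162 at an unadjusted p under 0.05), 13 with trend and robust options, and 3 to 1137 with a library left out, the highest without the miR-31 library without TGF-β2. For the miR-27 inhibitor it called 0 with no filter (2685 unadjusted) and 1 to 12 with a library left out. The Vim difference turned sign for the miR-27 inhibitor under median rescaling (-5.77e-04), and ranged from -0.0154 to 0.0779 for that inhibitor and from -0.0103 to 0.11 for the miR-31 inhibitor with a library left out. Other causes of these shifts were not tested. The fit compares TGF-β2 within each transfection, and no block of replicates could be added because each group has 1 library. Depth is unknown, so the precision of low values such as those of Krt7, Krt8 and Krt19 cannot be given.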
